A study of Mus musculus with 180 samples.

Results

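The cytochrome P450 enzymes were represented by 68 of the 13820 rows of the gene table, taken as each symbol that starts with Cyp and a digit, with the sterol demethylase Cyp51 left out. Cyp3a41a and Cyp3a41b held identical values in each library and were counted once, which left 67 distinct members. Cyp1a1, Cyp2r1, Cyp7b1, Cyp11a1, Cyp11b1, Cyp19a1, Cyp26a1, Cyp26c1 and Cyp27b1 were not analysed here. RNA was measured by 3′ tag sequencing in 180 libraries, 1 for each of 15 tissues of each of 12 female mice aged 6 weeks. The 3 groups compared held 4 mice each. TNFKO LPS mice were of the strain B6.129S-Tnftm1Gkl/J, which carries a targeted knockout of the cytokine gene Tnf, and received 5 mg/kg lipopolysaccharide (LPS), a bacterial cell wall component. LPS mice were C57BL/6J mice given the same dose. PBS mice were C57BL/6J mice given the buffer alone. Tissues of all groups were taken at 12 hours, after perfusion with PBS and EDTA. No TNFKO mice without LPS were included, so baseline differences between the strains and differences in the LPS response cannot be told apart.

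Values are the authors' normalised read counts per library, called signal here, and 1 count stood for a signal of 0.322 to 3.60 depending on the library. Libraries held 311128 to 2573806 counts. Changes are differences of mean log2(signal + 1), which understates the change of low genes, each with its standard error (SE). A member rose or fell where limma's moderated test gave a Benjamini-Hochberg adjusted p below 0.05 over all genes tested in that tissue. Other values are mean ± SD (n = 4). Values of single mice follow mouse number, from mouse 9 to 12 for TNFKO LPS, 5 to 8 for LPS and 1 to 4 for PBS. Tags of Tnf itself were above 0 in all 60 libraries of TNFKO LPS mice, with a median signal of 35.3, against 12.6 in LPS mice. The part of the gene removed is not given in the labels, so a 3′ tag checks nothing about the genotype. Markers of another tissue stood out in some libraries. This was seen for adrenal markers in kidney, kidney markers in bone marrow and inguinal lymph node, and liver markers in 1 lymph node. Their values are given with those tissues.

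Cytochrome P450 enzymes are heme proteins, mostly of the endoplasmic reticulum, that insert an oxygen atom into lipids, steroids, bile acids, vitamins and drugs. They take electrons from NADPH through the P450 reductase Por, or from ferredoxin in mitochondria. In liver, many are under the control of nuclear receptors such as CAR (Nr1i3), PXR (Nr1i2), FXR (Nr1h4) and PPARα, and loss of hepatic P450 transcripts during inflammation is long known.

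In PBS mice, 40 of the 67 members had their highest mean signal in liver, 7 in small intestine, 5 in kidney, 4 in lung and 3 each in colon and skin. Brain held the peak of 2, and bone marrow, brown fat and spleen of 1 each. The summed signal of all members in liver was 6671 ± 579 in TNFKO LPS mice, 7219 ± 1090 in LPS mice and 26859 ± 1057 in PBS mice. The sums with LPS were thus 24.8% (TNFKO LPS) and 26.9% (LPS) of the PBS mean. In kidney the same sum was 4550 ± 800.0, 2097 ± 368 and 2698 ± 186 in TNFKO LPS, LPS and PBS mice, or 169% and 77.7% of the PBS mean for the first 2 groups. In small intestine it was 1330 ± 347, 1278 ± 384 and 2810 ± 258, or 47.3% and 45.5%.

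In liver, 45 of 67 members fell and 2 rose in LPS against PBS mice, where 13.5% of all 13598 genes tested fell and 11.6% rose, and the median log2 change was -1.38 for the members and 0.0588 for all genes. In small intestine 18 of the 51 members that passed the filter on low values fell and 2 rose, against 13.4% and 9.92% of all genes. In kidney 14 of 54 fell and 5 rose, against 21.9% and 16.2% of all genes, so the share that fell was near that of all genes. The 2 rises in liver were 1 without PBS mouse 1 or LPS mouse 5, 6 or 8, those in small intestine 1 without LPS mouse 5, and the 14 falls in kidney 9 without PBS mouse 3. Over the other 12 tissues, 622 member-by-tissue tests gave 40 falls and 24 rises, against 8.92% and 8.69% of all tests. Across the 15 tissues, 45 members only fell where they passed the test, 16 fell in some tissues and rose in others, 3 only rose, and 3 never passed. The shares of all genes in these classes were not computed, so the counts do not set the members apart from other genes.

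In TNFKO LPS against LPS mice 15 members rose and 2 fell in kidney, where 13.2% of all genes rose and 6.82% fell. In liver 11 members rose and 10 fell, against 5.96% and 3.43% of all genes, and leaving out LPS mouse 5 gave 6 rises and leaving out LPS mouse 7 gave 5 falls. The 2 falls in kidney were 4 without LPS mouse 7. In small intestine 3 rose and 1 fell, against 4.47% and 2.65% of all genes. These were 1 rise without LPS mouse 8 or TNFKO LPS mouse 12, no fall without LPS mouse 5 or 8 or TNFKO LPS mouse 11 or 12, and 2 falls without LPS mouse 7. The other 12 tissues gave 18 rises and 3 falls in 622 tests, against 2.08% and 1.82% of all tests, and 10 rises without LPS mouse 7. With median-of-ratios scaling, the share of rises among all genes called moved to 54.8% in kidney (66.0% in the deposited scaling) and to 52.6% in small intestine (62.8%). Against PBS mice, which differ in both genotype and treatment, TNFKO LPS mice had 40 members lower and 3 higher in liver (7.72% and 6.5% of all genes), 7 lower and 10 higher in kidney (9% and 8.34%), and 17 lower and 1 higher in small intestine (8.44% and 7.22%). The last of these counts was 2 without PBS mouse 3 or 4. Over the other 12 tissues 21 were lower and 33 higher, against 5.57% and 6.55% of all tests.

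**Figure D1:**
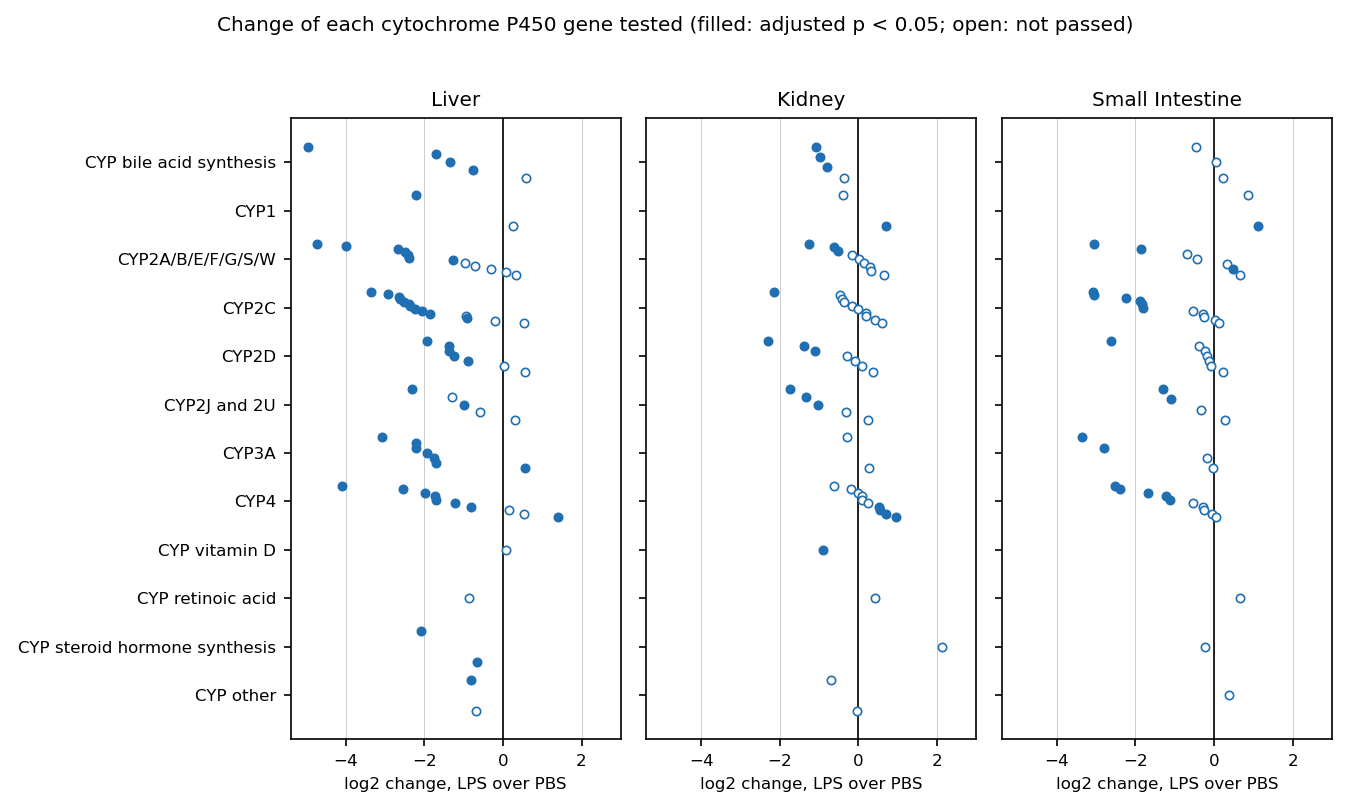
Log2 change of each member tested in LPS against PBS mice (x axis, log2 of signal + 1), by the list it belongs to (y axis), in liver, kidney and small intestine. Filled points passed an adjusted p of 0.05 and open points did not; most liver points lie left of 0, while 4 members of the CYP4 family lie right of 0 among the filled points in kidney.

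Summed markers of the main cell types were lower in both groups given LPS than in PBS mice. Between the 2 groups given LPS the sums overlapped, except for periportal hepatocyte markers. The summed signal of 10 hepatocyte markers in liver ran over 114864 to 146876 in TNFKO LPS mice, 105779 to 145834 in LPS mice and 236846 to 264984 in PBS mice, and 8 of the 10 fell in LPS against PBS mice while 2 rose. Pericentral hepatocyte markers summed to 743 to 949 in TNFKO LPS mice, 828 to 1019 in LPS mice and 2717 to 3083 in PBS mice, and periportal ones to 3620 to 5922 in TNFKO LPS mice, 2367 to 3505 in LPS mice and 8769 to 9208 in PBS mice. The 8 kidney proximal tubule markers in the table, all of which fell with LPS, summed to 7332 to 8070 in TNFKO LPS mice, 5324 to 8082 in LPS mice and 14080 to 16431 in PBS mice in kidney. Enterocyte markers in small intestine summed to 3757 to 6420 in TNFKO LPS mice, 2639 to 5945 in LPS mice and 14062 to 18288 in PBS mice, and 7 of 8 fell with LPS. No marker of these lists was at 0 throughout a group. Fewer cells of a type and less RNA per cell cannot be told apart in bulk tissue, and the part of cell composition in the results below was not tested.

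Enzymes of bile acid synthesis were lower in liver after LPS. Of the 5 members on this list in liver, 4 fell with LPS, against 13.5% of all genes. The median log2 change was -1.35 over the list against 0.0588 over all genes. Cyp7a1 (chr4:6265612-6275633, minus strand, GRCm38), the rate-limiting enzyme of the classic pathway, had a signal of 5.99, 1.36, 2.65 and 0 in TNFKO LPS mice, 0, 0, 0 and 0 in LPS mice, and 18.0, 15.6, 76.2 and 37.0 in PBS mice. It was not detected in any of the LPS livers, and the TNFKO LPS livers held 8 counts in all. Set against a floor of 3 counts per library, a signal of 3.75 to 4.09 there, the PBS mean of 36.7 made Cyp7a1 at least 8.98-fold lower in LPS livers with all mice (adjusted p = 4.43e-08 in limma) and at least 5.76-fold lower without PBS mouse 3, the highest. The difference between TNFKO LPS and LPS livers did not pass (adjusted p = 0.11). Cyp27a1, the mitochondrial sterol hydroxylase that opens the alternative pathway, had 126, 154, 140.5 and 194 in TNFKO LPS mice, 199, 192, 289 and 214 in LPS mice, and 628, 525, 535 and 579 in PBS mice. The change was -1.35 ± 0.13 (SE; adjusted p = 2.80e-09) for LPS against PBS and -0.54 ± 0.13 (SE; adjusted p = 0.00796) for TNFKO LPS against LPS, and the second call was lost when any 1 of mice 7 and 9 was left out (adjusted p up to 0.0543). Each TNFKO LPS and LPS liver lay below each PBS liver. Cyp39a1, an oxysterol hydroxylase, fell by 1.71 ± 0.26 with LPS (adjusted p = 4.99e-06). Cyp8b1, which sets the share of cholic acid, averaged 115 ± 16.3 in TNFKO LPS mice, 117 ± 56.6 in LPS mice and 189.6 ± 52.5 in PBS mice, with groups that overlap, and its fall with LPS (-0.76 ± 0.22, SE; adjusted p = 0.00875) was lost when any 1 of mice 4 and 5 was left out (adjusted p up to 0.0641). Cyp46a1, the cholesterol hydroxylase of neurons, did not pass.

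The pair of female-predominant liver enzymes Cyp2b9 and Cyp2b13 and their relative Cyp2b10, a standard target of the receptor CAR, are shown by the 250 bases before their start sites (RefSeq, GRCm38.p6), because the first 2 fell steeply with LPS in liver and Cyp2b10 did not pass. The windows are chr7:26173159-26173408, chr7:26061245-26061494 and chr7:25897408-25897657, all on the plus strand. Capitals mark letters found on either strand that match AGGTCA (a nuclear receptor half-site), GCGTG (the core bound by the aryl hydrocarbon receptor), TATAAA, TTGCNNAA (C/EBP) or TTCNNNGAA (STAT).
Cyp2b9: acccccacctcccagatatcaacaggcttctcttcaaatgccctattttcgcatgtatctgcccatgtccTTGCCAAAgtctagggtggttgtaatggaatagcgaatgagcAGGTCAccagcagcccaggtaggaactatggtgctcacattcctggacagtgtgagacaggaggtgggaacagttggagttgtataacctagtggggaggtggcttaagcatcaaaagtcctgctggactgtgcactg
Cyp2b13: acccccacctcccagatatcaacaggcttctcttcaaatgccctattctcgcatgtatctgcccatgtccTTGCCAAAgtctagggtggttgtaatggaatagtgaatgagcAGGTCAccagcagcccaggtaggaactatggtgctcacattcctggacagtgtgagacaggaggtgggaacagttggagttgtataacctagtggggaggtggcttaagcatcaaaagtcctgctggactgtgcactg
Cyp2b10: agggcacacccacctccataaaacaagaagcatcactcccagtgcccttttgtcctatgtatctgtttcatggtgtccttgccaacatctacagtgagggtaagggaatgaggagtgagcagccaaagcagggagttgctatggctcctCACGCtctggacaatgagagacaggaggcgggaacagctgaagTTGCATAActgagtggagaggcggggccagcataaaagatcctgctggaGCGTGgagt

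The Cyp2b9 and Cyp2b13 windows were identical at 248 of 250 positions, with T48C and C104T (the Cyp2b9 base, the position from the 5′ end of the window, then the Cyp2b13 base). Each was 71.4% identical to the Cyp2b10 window, at 187 of 262 aligned positions. Both held AGGTCA and TTGCNNAA once. The Cyp2b10 window held GCGTG at 2 places and TTGCNNAA once, and not AGGTCA. Among the 52 members with a window in the RefSeq table, 21.2% held AGGTCA, 17.3% GCGTG, 46.2% TATAAA, 25% TTGCNNAA and 5.77% TTCNNNGAA, where 13.8%, 28.2%, 13%, 9.55% and 7.18% of 27025 windows of all genes did. Such matches describe letters only.

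In liver, Cyp2b9 had a signal of 10.8, 12.2, 10.6 and 13.4 in TNFKO LPS mice, 9.53, 9.29, 16.3 and 13.2 in LPS mice, and 226, 246, 184 and 159 in PBS mice. The change was -3.98 ± 0.22 (SE; adjusted p = 1.83e-14) for LPS against PBS and -0.01 ± 0.22 (SE; adjusted p = 0.995) for TNFKO LPS against LPS. Cyp2b13 had 2.40, 2.72, 3.98 and 2.23 in TNFKO LPS mice, 0, 2.65, 2.50 and 2.64 in LPS mice, and 66.0, 123, 87.3 and 30.0 in PBS mice. It fell by 4.73 ± 0.46 with LPS (adjusted p = 2.02e-09). For both genes each PBS liver was above all 8 livers of mice given LPS, and the 2 LPS groups overlapped. Cyp2b10 had 39.5, 38.0, 50.4 and 68.1 in TNFKO LPS mice, 23.1, 26.5, 22.5 and 15.8 in LPS mice, and 20.0, 15.6, 16.7 and 15.9 in PBS mice. It did not pass for LPS against PBS (0.33 ± 0.24, SE; adjusted p = 0.356), and was higher in TNFKO LPS than in LPS livers by 1.10 ± 0.24 (SE; adjusted p = 0.00212), with no overlap. Of the last 500 transcript bases, no 50-base word of Cyp2b9 and 7.54% of the words of Cyp2b13 were shared with another gene.

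Enzymes of drug and toxicant metabolism were among the liver members that fell. Of the 12 members of the 2A, 2B, 2E, 2F, 2G and 2S subfamilies in the table, 7 fell and none rose with LPS. The shares of all genes in liver were 13.5% and 11.6%. Cyp2e1, which oxidises ethanol and paracetamol, had 575, 494, 722 and 553 in TNFKO LPS mice, 449.5, 633, 500.2 and 732 in LPS mice, and 2911, 3131, 3798 and 2952 in PBS mice. Its log2 change with LPS was -2.48 ± 0.13 (SE; adjusted p = 5.03e-15), and that for TNFKO LPS against LPS was 0.03 ± 0.13 (SE; adjusted p = 0.939). Cyp1a2, the caffeine-metabolising target of the aryl hydrocarbon receptor, had 56.3, 109, 70.2 and 92.7 in TNFKO LPS mice, 84.4, 75.6, 124 and 113 in LPS mice, and 509.9, 454, 418 and 432 in PBS mice. It fell by 2.20 ± 0.17 with LPS (adjusted p = 1.49e-11). Cyp2f2, an oxidase of naphthalene, averaged 412 ± 26.4 in TNFKO LPS mice, 305 ± 72.4 in LPS mice and 1578 ± 82.8 in PBS mice; the changes were -2.40 ± 0.12 (SE; adjusted p = 1.89e-15) with LPS and 0.46 ± 0.12 (SE; adjusted p = 0.0112) for TNFKO LPS against LPS. The second was lost when any 1 of mice 5 and 8 was left out. Cyp2a4, a steroid hydroxylase, had 24.0, 10.9, 31.8 and 11.2 in TNFKO LPS mice, 25.9, 23.9, 101 and 76.5 in LPS mice, and 354, 300.0, 289.8 and 279 in PBS mice. It fell with LPS (-2.67 ± 0.33, SE; adjusted p = 2.30e-07) and again in TNFKO LPS against LPS livers (-1.37 ± 0.33, SE; adjusted p = 0.00639), although 44.3% of its 3′ words are shared with another gene and its counts could be split with it. For Cyp2e1, Cyp1a2, Cyp2f2 and Cyp2a4 each liver given LPS, of either genotype, lay below each PBS liver.

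The CYP2C subfamily, epoxygenases and hydroxylases of fatty acids, bile acids and drugs, fell in 11 of its 14 liver members, with a median log2 change of -2.30, and none rose. Of all genes in liver, 13.5% fell and 11.6% rose with LPS. The falls ran from -0.91 for Cyp2c70 to -3.35 for Cyp2c38. In TNFKO LPS against LPS livers 5 of the 14 fell and none rose, against 3.43% and 5.96% of all genes. Cyp2c70, which forms the muricholic acids of mice, had 218, 217, 231 and 220.0 in TNFKO LPS mice, 490.3, 458, 744 and 679 in LPS mice, and 1300, 1203, 827 and 1106 in PBS mice, so that the 3 groups did not overlap and stood in the order TNFKO LPS, LPS, PBS from low to high. The change was -0.91 ± 0.14 (SE; adjusted p = 4.91e-06) for LPS against PBS and -1.39 ± 0.14 (SE; adjusted p = 2.91e-08) for TNFKO LPS against LPS. Cyp2c29 had 144, 162, 140.5 and 179 in TNFKO LPS mice, 191, 234, 328 and 294 in LPS mice, and 1240, 1396, 1170 and 1064 in PBS mice, in the same order without overlap. The changes were -2.24 ± 0.13 (SE; adjusted p = 8.15e-14) for LPS against PBS and -0.72 ± 0.13 (SE; adjusted p = 4.38e-04) for TNFKO LPS against LPS. Cyp2c69 averaged 135 ± 42.3 in TNFKO LPS mice, 329 ± 109 in LPS mice and 2010 ± 556 in PBS mice. The changes were -2.63 ± 0.20 for LPS against PBS and -1.27 ± 0.20 for TNFKO LPS against LPS (SE; adjusted p = 1.30e-11 and 5.36e-05). Shares of 3′ words held by another gene were 38.4% for Cyp2c69, 62.4% for Cyp2c40 and 51.2% for Cyp2c67 and Cyp2c68, and those values are less certain.

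In the CYP3A subfamily, the main drug oxidases of liver and gut, 5 of 6 distinct members fell in liver with LPS and 1 rose. The shares of all genes there were 13.5% and 11.6%. Cyp3a11, the standard PXR target in mice, had 628, 359, 571 and 478 in TNFKO LPS mice, 684, 609, 780.3 and 1176 in LPS mice, and 2417, 3022, 2685 and 2440 in PBS mice. The change was -1.74 ± 0.16 (SE; adjusted p = 3.74e-10) with LPS and -0.66 ± 0.16 (SE; adjusted p = 0.00504) for TNFKO LPS against LPS. Each PBS liver was above the others, and the 2 groups given LPS overlapped. Cyp3a25 averaged 21.3 ± 2.98 in TNFKO LPS mice, 34.6 ± 12.6 in LPS mice and 289 ± 58.5 in PBS mice. It fell by 3.08 ± 0.21 with LPS (adjusted p = 1.12e-12). Cyp3a13 (chr5:137892932-137921619, minus strand), which lies apart from the 5 others on the same chromosome, went the other way. It had 590.5, 463, 506 and 565 in TNFKO LPS mice, 310.5, 390.0, 326 and 311 in LPS mice, and 204, 244, 209.9 and 249 in PBS mice, and the 3 groups did not overlap. The change was 0.56 ± 0.11 (SE; adjusted p = 2.93e-04) for LPS against PBS, 0.67 ± 0.11 (SE; adjusted p = 1.19e-04) for TNFKO LPS against LPS and 1.22 ± 0.11 (SE; adjusted p = 1.10e-09) for TNFKO LPS against PBS. It passed in no tissue other than liver for LPS against PBS.

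Members of the CYP4 family hydroxylate fatty acids and leukotrienes at the end of the chain. In liver 7 of 10 fell and 1 rose with LPS, against 13.5% and 11.6% of all genes. Cyp4f15 (chr17:32685627-32703352, plus strand) differed between the groups given LPS, with 55.1, 38.0, 53.0 and 64.8 in TNFKO LPS mice, 5.45, 14.6, 12.5 and 1.32 in LPS mice, and 122, 111, 145 and 134 in PBS mice. The 3 groups did not overlap. The change was -4.10 ± 0.35 (SE; adjusted p = 1.85e-10) for LPS against PBS, 2.82 ± 0.35 (SE; adjusted p = 1.80e-06) for TNFKO LPS against LPS, and -1.28 ± 0.35 (SE; adjusted p = 0.0115) for TNFKO LPS against PBS. It passed in liver alone of the 9 tissues where it could be tested. Cyp4f15, Cyp4f14, Cyp4f13 and Cyp4f16 lie 2.50, 2.28, 2.25 and 2.65 Mb from Tnf (chr17:35199381-35202007), the gene targeted in the TNFKO strain. Of these 4 genes, 2 rose and 1 fell in TNFKO LPS against LPS livers, against 5.96% and 3.43% of all genes. Sequence differences between the strains there were not analysed here. Cyp4f14, a neighbour of Cyp4f15, averaged 37.5 ± 4.25 in TNFKO LPS mice, 60.2 ± 23.3 in LPS mice and 332 ± 10.8 in PBS mice. The changes were -2.53 ± 0.19 with LPS and -0.59 ± 0.19 for TNFKO LPS against LPS (SE; adjusted p = 7.55e-12 and 0.043). The second call was lost at a pseudocount of 0.25, in a fit of those 2 groups alone or when any 1 of mice 7, 8, 9, 11 and 12 was left out (adjusted p up to 0.222). Cyp4a10 and Cyp4a14, fatty acid hydroxylases induced through PPARα, fell with LPS by 1.72 ± 0.19 and 1.97 ± 0.22 on the log2 scale (adjusted p = 1.97e-08 and 2.98e-08). Cyp4a10 had a liver signal of 195, 99.2, 236 and 128 in TNFKO LPS mice, 161, 232, 186 and 199 in LPS mice, and 568, 498, 834 and 702 in PBS mice. Cyp4f18, a leukotriene hydroxylase of myeloid cells, was the second riser in liver, with a mean signal of 7.38 ± 2.34 in TNFKO LPS mice, 8.27 ± 2.44 in LPS mice and 3.14 ± 2.31 in PBS mice (1.41 ± 0.50, SE; adjusted p = 0.0377 for LPS against PBS), at the level of a few counts. That call was lost at a pseudocount of 0.25, with edgeR on the counts, in a fit of those 2 groups alone or when any 1 of mice 1, 5, 6 and 8 was left out (adjusted p up to 0.183), and its last bases overlap Zfp961.

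In liver, 11 of 67 members were higher and 10 lower in TNFKO LPS than in LPS mice (5.96% and 3.43% of all genes). Cyp2d9, a testosterone hydroxylase, had 119.8, 93.7, 176 and 116 in TNFKO LPS mice, 39.5, 69.0, 42.5 and 55.4 in LPS mice, and 124, 95.4, 74.3 and 86.5 in PBS mice. The change was -0.88 ± 0.19 (SE; adjusted p = 8.08e-04) with LPS and 1.27 ± 0.19 (SE; adjusted p = 2.93e-05) for TNFKO LPS against LPS, and TNFKO LPS and PBS livers overlapped. Cyp2d10 averaged 351 ± 17.1 in TNFKO LPS mice, 233 ± 30.7 in LPS mice and 889 ± 84.6 in PBS mice. The changes were -1.93 ± 0.11 for LPS against PBS and 0.60 ± 0.11 for TNFKO LPS against LPS (SE; adjusted p = 1.85e-14 and 2.96e-04). Of the 3′ words of Cyp2d9 and Cyp2d10, 32.2% and 34.6% are shared with other genes. Cyp17a1, a steroid hydroxylase of gonads, adrenals and mouse liver, had 163, 172, 178 and 182 in TNFKO LPS mice, 89.9, 129, 40.0 and 44.8 in LPS mice, and 80.0, 116, 121 and 122 in PBS mice. It was higher in TNFKO LPS than in LPS livers by 1.35 ± 0.23 (SE; adjusted p = 1.59e-04), with no overlap, while its fall in LPS against PBS livers (-0.67 ± 0.23, SE; adjusted p = 0.0331) was lost with edgeR on the counts, in a fit of those 2 groups alone or when any 1 of mice 2, 3, 4, 7 and 8 was left out (adjusted p up to 0.183). In the CYP2D subfamily as a whole, 5 of 7 members fell with LPS, and 2 rose in TNFKO LPS against LPS livers. Of all genes in liver, 13.5% fell with LPS and 5.96% rose in TNFKO LPS against LPS mice.

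**Figure D2:**
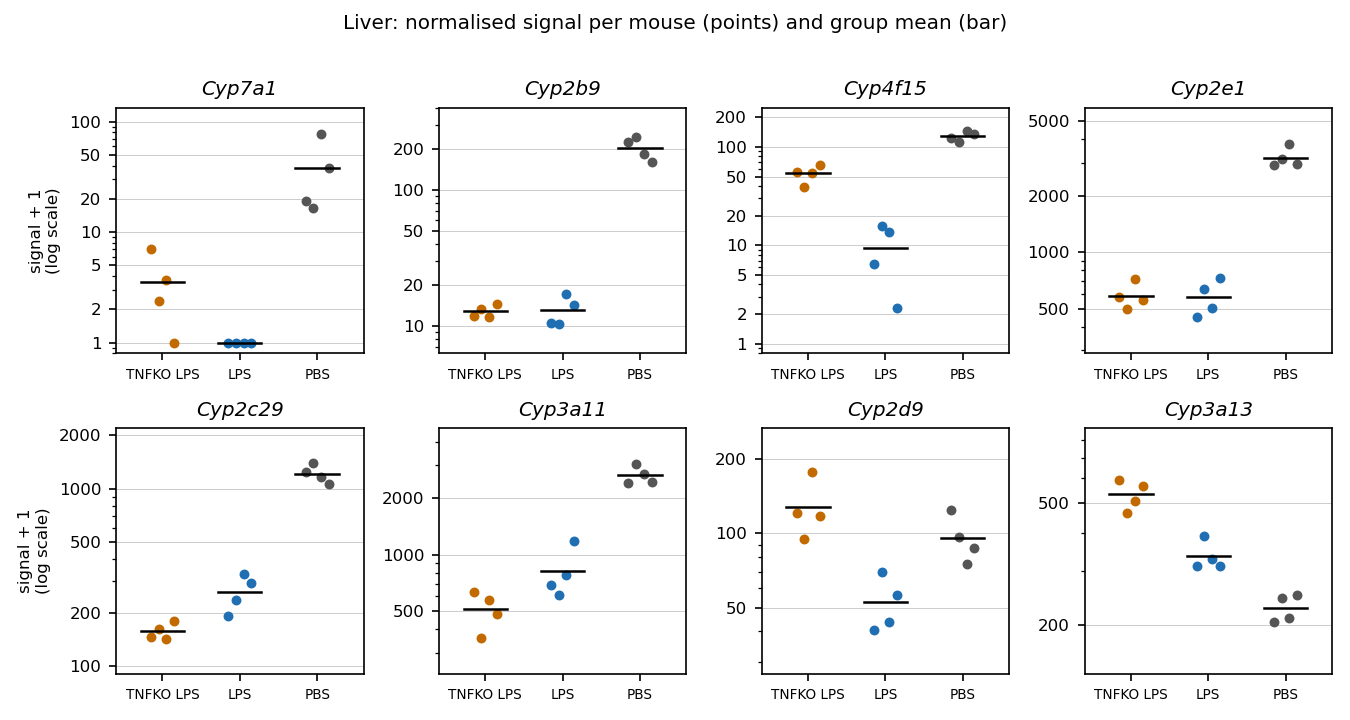
Liver signal + 1 of 8 members (y axis, log scale) in TNFKO LPS, LPS and PBS mice (x axis); each point is 1 mouse and each bar the mean of 4. Cyp7a1 is at 0 in the 4 LPS mice, Cyp4f15 is lowest in LPS mice, and Cyp3a13 is highest in TNFKO LPS mice.

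Genes that supply the enzymes with electrons and heme moved in both directions in liver. Of 19 such genes tested, 3 rose and 11 fell with LPS, and 4 rose and none fell in TNFKO LPS against LPS. Alas1, the first enzyme of heme synthesis, averaged 486 ± 22.5 in TNFKO LPS mice, 618 ± 112 in LPS mice and 187 ± 71.0 in PBS mice and rose by 1.80 ± 0.19 (SE; adjusted p = 7.49e-09) with LPS. Por, the P450 reductase, averaged 418 ± 65.3 in TNFKO LPS mice, 425 ± 62.1 in LPS mice and 293 ± 61.6 in PBS mice. The change was 0.55 ± 0.14 (SE; adjusted p = 0.00348) with LPS. Cyb5a, the microsomal cytochrome b5 that aids many P450 reactions, averaged 551 ± 55.4 in TNFKO LPS mice, 603 ± 110.2 in LPS mice and 2389 ± 383 in PBS mice. The change was -1.99 ± 0.12 (SE; adjusted p = 1.19e-13) with LPS. Among 19 transcription factor and bile acid feedback genes, 2 rose and 8 fell with LPS, and 7 rose and 1 fell in TNFKO LPS against LPS. Of all genes tested in liver, 11.6% rose and 13.5% fell with LPS. In TNFKO LPS against LPS livers, 5.96% of all genes rose and 3.43% fell. Nr0b2 (SHP, a repressor of bile acid synthesis genes) averaged 26.5 ± 3.38 in TNFKO LPS mice, 3.95 ± 3.61 in LPS mice and 123 ± 5.21 in PBS mice. The change was -4.89 ± 0.31 (SE; adjusted p = 2.31e-13) with LPS and 2.70 ± 0.31 (SE; adjusted p = 3.48e-07) for TNFKO LPS against LPS. Nr1i3 (CAR) averaged 14.1 ± 3.68 in TNFKO LPS mice, 5.89 ± 1.58 in LPS mice and 31.8 ± 6.76 in PBS mice. The changes were -2.26 ± 0.31 for LPS against PBS and 1.12 ± 0.31 for TNFKO LPS against LPS (SE; adjusted p = 1.37e-06 and 0.0189). The second was lost when any 1 of mice 8, 11 and 12 was left out (adjusted p up to 0.0849). Nr1i2 (PXR) fell by 1.24 ± 0.30 with LPS (adjusted p = 0.00186) and did not pass between the groups given LPS (0.27 ± 0.30, SE; adjusted p = 0.712). Ahr was higher in TNFKO LPS than in LPS livers by 1.52 ± 0.28 (SE; adjusted p = 3.95e-04).

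In kidney the CYP4A genes, which encode fatty acid hydroxylases, rose in TNFKO LPS against LPS mice. In all, 4 of the 10 CYP4 members rose in that comparison and none fell, against 13.2% and 6.82% of all genes. Cyp4a10 (chr4:115518264-115533649, plus strand) had 1206, 1445, 1104 and 1775 in TNFKO LPS mice, 325, 674, 319 and 359 in LPS mice, and 274, 252, 315 and 256 in PBS mice. All 4 TNFKO LPS kidneys were above all others, and LPS mouse 6 was the highest of its group. The log2 change was 1.77 ± 0.17 (SE; adjusted p = 3.72e-08) for TNFKO LPS against LPS and 0.54 ± 0.17 (SE; adjusted p = 0.0114) for LPS against PBS. Cyp4a14 had 1304, 1116, 1032 and 1593 in TNFKO LPS mice, 351, 554, 296 and 319 in LPS mice, and 215, 268, 295 and 254 in PBS mice. The changes were 1.76 ± 0.15 (SE; adjusted p = 6.60e-09) for TNFKO LPS against LPS and 0.52 ± 0.15 (SE; adjusted p = 0.00635) for LPS against PBS. Cyp4a31 had 343, 402, 307 and 428 in TNFKO LPS mice, 154, 202, 114 and 130.2 in LPS mice, and 130.5, 139.8, 187 and 145 in PBS mice. The change was 1.32 ± 0.14 (SE; adjusted p = 2.48e-07) for TNFKO LPS against LPS, while LPS and PBS kidneys overlapped (-0.02 ± 0.14, SE; adjusted p = 0.913). Cyp4b1, which lies beside them within 161.5 kb, was higher in TNFKO LPS mice by 0.76 ± 0.12 (SE; adjusted p = 5.61e-05). Of the 3′ words, 5.95% of Cyp4a10, none of Cyp4a14 and 15.5% of Cyp4a31 were shared with other genes.

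The rise of Cyp4a14 in LPS against PBS kidneys was lost without the kidney libraries of mice 5, 6 and 9 (adjusted p = 0.107). These 3 libraries held the most adrenal marker signal, whose part in the result was otherwise not tested. The sum of 6 adrenal cortex markers was 144 in TNFKO LPS mouse 9 and 279 and 819 in LPS mice 5 and 6, against 19.9 to 64.7 in the other kidneys. Cyp21a1, the adrenal steroid hydroxylase, followed it, with 12.7, 0.531, 0.473 and 0 in TNFKO LPS mice, 17.3, 76.2, 0 and 0.924 in LPS mice, and 0, 1.64, 0.635 and 0.712 in PBS mice, and passed in no comparison in limma (adjusted p = 0.23 for TNFKO LPS against LPS and 0.0654 for LPS against PBS). With edgeR on the counts it passed in both (adjusted p = 0.0114 and 0.00185). Leaving out LPS mouse 7 also made it pass in both, and leaving out LPS mouse 8 for LPS against PBS. Cyp21a1 lies 0.395 Mb from Tnf, and its last bases overlap Tnxa. Without the 3 libraries the number of members higher in LPS against PBS kidneys was 3 in place of 5.

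The vitamin D hydroxylase Cyp24a1 (chr2:170482708-170497145, minus strand), which inactivates calcitriol, went in the opposite direction to the CYP4A genes. Its kidney signal was 2.11, 6.90, 13.7 and 9.23 in TNFKO LPS mice, 19.3, 28.2, 62.3 and 24.0 in LPS mice, and 60.7, 49.9, 59.7 and 59.8 in PBS mice. Each TNFKO LPS kidney was below each LPS kidney, and the log2 change was -2.00 ± 0.33 (SE; adjusted p = 9.35e-05). LPS and PBS kidneys overlapped through LPS mouse 7, and that fall (-0.91 ± 0.33, SE; adjusted p = 0.0336) was lost at a pseudocount of 0.25, without the kidney libraries of mice 5, 6 and 9 or when any 1 of mice 1, 3, 4, 5 and 8 was left out (adjusted p up to 0.133). Vdr, the vitamin D receptor that drives Cyp24a1, averaged 130.1 ± 14.1 in TNFKO LPS mice, 72.6 ± 18.2 in LPS mice and 128 ± 6.62 in PBS mice, with a change of 0.86 ± 0.13 (SE; adjusted p = 3.40e-05) for TNFKO LPS against LPS. Cyp26b1, which degrades retinoic acid, had 11.9, 12.2, 12.8 and 13.1 in TNFKO LPS mice, 5.34, 7.05, 1.47 and 5.54 in LPS mice, and 5.58, 2.19, 0.635 and 6.41 in PBS mice. It was higher in TNFKO LPS than in LPS kidneys by 1.33 ± 0.40 (SE; adjusted p = 0.018), a call lost without LPS mouse 7 (adjusted p = 0.0868).

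Other kidney members fell with LPS, and part of them were less low in TNFKO LPS mice. Cyp2j5, an arachidonic acid epoxygenase of mouse proximal tubule, had 379, 363, 399 and 480.2 in TNFKO LPS mice, 302, 313, 318 and 301 in LPS mice, and 746, 789.8, 827 and 775 in PBS mice. The 3 groups did not overlap. The log2 change was -1.34 ± 0.08 (SE; adjusted p = 2.12e-12) with LPS and 0.39 ± 0.08 (SE; adjusted p = 0.00167) for TNFKO LPS against LPS. Cyp2d26 had 145, 127, 118 and 184 in TNFKO LPS mice, 82.7, 69.2, 110.0 and 78.5 in LPS mice, and 184, 219, 263 and 229 in PBS mice. The changes were -1.39 ± 0.14 for LPS against PBS and 0.75 ± 0.14 for TNFKO LPS against LPS (SE; adjusted p = 1.06e-08 and 3.58e-04). Cyp2d12 fell by 2.30 ± 0.23 with LPS (adjusted p = 1.01e-08), with 11.9, 12.2, 12.3 and 19.4 in TNFKO LPS mice, 9.34, 5.76, 10.3 and 4.62 in LPS mice, and 32.8, 42.2, 47.6 and 35.6 in PBS mice. Cyp27a1 averaged 36.0 ± 7.80 in TNFKO LPS mice, 20.2 ± 3.52 in LPS mice and 35.5 ± 4.36 in PBS mice. The change was -0.79 ± 0.17 (SE; adjusted p = 5.60e-04) with LPS and 0.79 ± 0.17 (SE; adjusted p = 0.00147) for TNFKO LPS against LPS. Cyp2e1 had 70.3, 118, 83.8 and 169 in TNFKO LPS mice, 42.7, 54.5, 49.1 and 47.1 in LPS mice, and 58.6, 66.3, 89.0 and 67.0 in PBS mice. It was higher in TNFKO LPS than in LPS kidneys by 1.10 ± 0.19 (SE; adjusted p = 1.09e-04). Cyp2c23, another epoxygenase, averaged 11.2 ± 1.96 in TNFKO LPS mice, 12.2 ± 1.43 in LPS mice and 56.8 ± 3.98 in PBS mice and fell with LPS (-2.14 ± 0.17, SE; adjusted p = 2.64e-10) with no difference past the threshold between the groups given LPS (adjusted p = 0.688). Cyp2a4 had 10.5, 11.7, 8.52 and 18.4 in TNFKO LPS mice, 32.7, 18.6, 27.9 and 33.2 in LPS mice, and 48.2, 60.8, 84.5 and 79.8 in PBS mice, stepwise lower without overlap. The changes were -1.25 ± 0.22 (SE; adjusted p = 4.44e-05) for LPS against PBS and -1.15 ± 0.22 (SE; adjusted p = 4.12e-04) for TNFKO LPS against LPS. Proximal tubule markers, whose sums are given above, were also lower in both groups given LPS than in PBS mice.

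**Figure D3:**
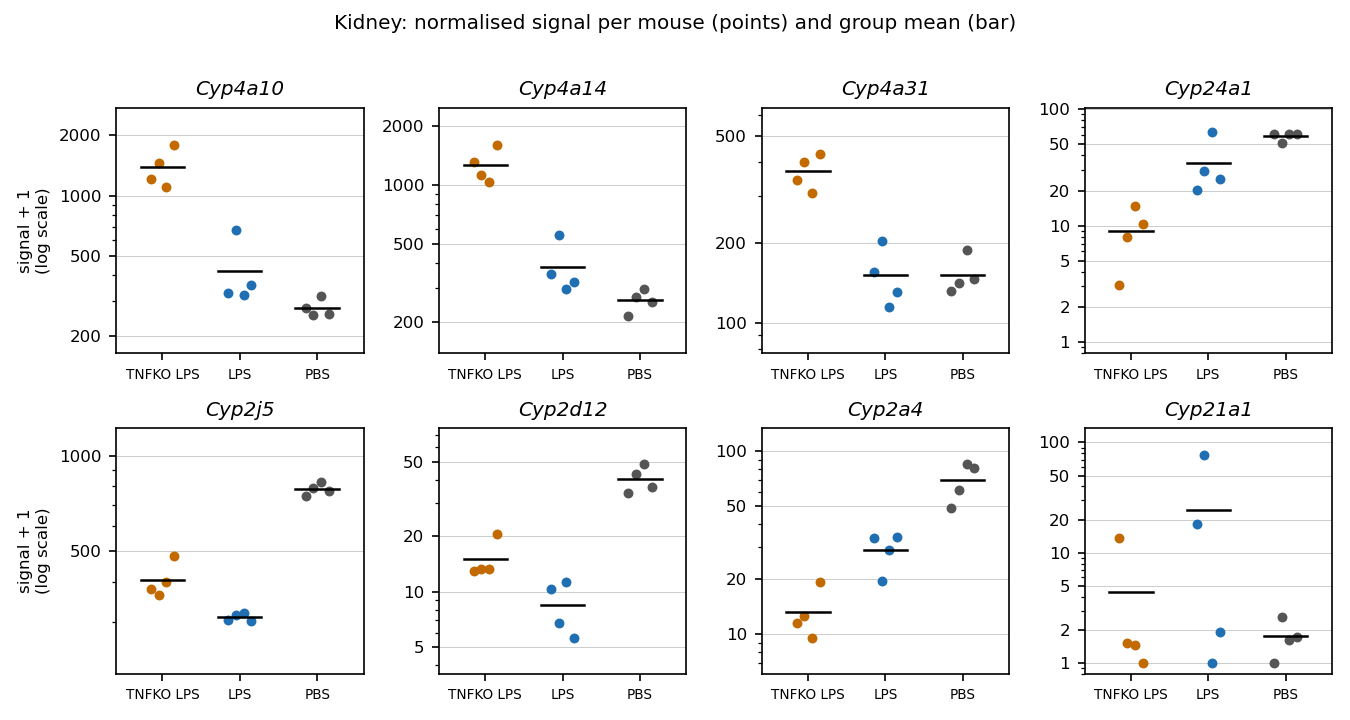
Kidney signal + 1 of 8 members (y axis, log scale) in TNFKO LPS, LPS and PBS mice (x axis); each point is 1 mouse and each bar the mean of 4. The 3 Cyp4a genes are highest in TNFKO LPS mice, Cyp24a1 and Cyp2a4 are lowest there, and Cyp21a1 is raised in 3 kidneys that carry adrenal markers.

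Of the 19 electron and heme supply genes in kidney, 3 rose and 10 fell with LPS, and 4 rose and 1 fell in TNFKO LPS against LPS. Por averaged 132 ± 7.35 in TNFKO LPS mice, 143 ± 37.8 in LPS mice and 225 ± 19.1 in PBS mice. The change was -0.69 ± 0.14 (SE; adjusted p = 3.45e-04) with LPS. Of 17 transcription factor and feedback genes, 2 rose and 5 fell with LPS, and 4 rose and 2 fell in TNFKO LPS against LPS. Of all genes tested in kidney, 16.2% rose and 21.9% fell with LPS. In TNFKO LPS against LPS kidneys, 13.2% of all genes rose and 6.82% fell. Hnf4a, a driver of many proximal tubule and liver genes, averaged 189 ± 19.9 in TNFKO LPS mice, 96.8 ± 44.0 in LPS mice and 293 ± 26.2 in PBS mice. The changes were -1.68 ± 0.17 with LPS and 1.04 ± 0.17 for TNFKO LPS against LPS (SE; adjusted p = 1.13e-08 and 6.91e-05).

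In small intestine the drug-metabolising enzymes Cyp3a11, Cyp3a25 and Cyp2b10 fell with LPS, Cyp2e1 rose and Cyp3a13 did not pass. Cyp3a11 had 9.74, 20.7, 15.4 and 27.7 in TNFKO LPS mice, 29.5, 63.3, 7.48 and 24.2 in LPS mice, and 158, 259, 113 and 201 in PBS mice. The log2 change was -2.79 ± 0.40 (SE; adjusted p = 2.04e-05) with LPS, -0.48 ± 0.40 (SE; adjusted p = 0.539) for TNFKO LPS against LPS and -3.27 ± 0.40 (SE; adjusted p = 3.80e-06) for TNFKO LPS against PBS. Cyp3a25 had 3.44, 6.75, 7.71 and 9.90 in TNFKO LPS mice, 10.8, 12.7, 2.04 and 8.06 in LPS mice, and 73.5, 105, 69.6 and 84.6 in PBS mice. The change was -3.35 ± 0.34 (SE; adjusted p = 3.15e-07) with LPS. Cyp2b10 had 4.59, 3.60, 1.71 and 6.44 in TNFKO LPS mice, 5.42, 4.03, 5.44 and 5.75 in LPS mice, and 56.7, 58.3, 30.0 and 62.4 in PBS mice. The change was -3.06 ± 0.28 (SE; adjusted p = 7.14e-08) with LPS. For these 3 genes each PBS intestine was above all 8 others, and the groups given LPS overlapped. Cyp3a13, on the contrary, had 318, 397, 408 and 702 in TNFKO LPS mice, 670.0, 736, 295 and 562 in LPS mice, and 519.8, 624, 425 and 644 in PBS mice, with overlap of all groups and -0.03 ± 0.23 (SE; adjusted p = 0.946) for LPS against PBS. Cyp2e1 had 27.5, 25.2, 27.0 and 29.7 in TNFKO LPS mice, 35.5, 32.2, 28.6 and 32.8 in LPS mice, and 22.1, 22.1, 22.0 and 25.2 in PBS mice. Each LPS intestine was above each PBS intestine, and the rise of 0.48 ± 0.14 (SE; adjusted p = 0.0174) with LPS was lost without LPS mouse 5 (adjusted p = 0.056). In the CYP2C subfamily 6 of 11 members tested fell, and in the CYP4 family 5 of 10, with no rise in either. Of all genes tested there, 13.4% fell and 9.92% rose.

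Cyp2c55, an epoxygenase and hydroxylase of the gut, had 1.72, 1.80, 1.28 and 0.495 in TNFKO LPS mice, 4.21, 2.88, 4.08 and 5.18 in LPS mice, and 60.2, 66.2, 27.1 and 28.2 in PBS mice. It fell with LPS (-3.09 ± 0.31, SE; adjusted p = 1.99e-07) and was lower still in TNFKO LPS than in LPS intestine (-1.15 ± 0.31, SE; adjusted p = 0.0253), where each library of these groups held few counts. The second call was lost with edgeR on the counts or when any 1 of mice 5, 8, 11 and 12 was left out (adjusted p up to 0.106). Cyp4f14 had 152, 149.9, 173 and 295 in TNFKO LPS mice, 149, 136, 36.7 and 99.5 in LPS mice, and 485, 519, 513 and 470.1 in PBS mice, and Cyp4v3, a fatty acid hydroxylase, had 90.0, 116, 98.9 and 182 in TNFKO LPS mice, 83.7, 90.3, 26.5 and 58.1 in LPS mice, and 309, 384, 358 and 315 in PBS mice. With LPS, Cyp4f14 changed by -2.40 ± 0.28 (SE; adjusted p = 1.81e-06) and Cyp4v3 by -2.52 ± 0.26 (SE; adjusted p = 3.07e-07). In TNFKO LPS against LPS intestine, Cyp4f14 was higher by 0.98 ± 0.28 (SE; adjusted p = 0.0371) and Cyp4v3 by 0.99 ± 0.26 (SE; adjusted p = 0.0224). LPS mouse 7 was the lowest for both, and its enterocyte markers summed to 2639 against 5123 to 5945 in the other LPS intestines. The Cyp4f14 difference was lost after rescaling, in a fit of those 2 groups alone or when any 1 of mice 7, 8, 9, 11 and 12 was left out (adjusted p up to 0.131), and was 0.54 (adjusted p = 0.059) without LPS mouse 7. That of Cyp4v3 was lost in a fit of those 2 groups alone or when any 1 of mice 8, 10 and 12 was left out (adjusted p up to 0.0862). The 3′ end of Cyp4v3 overlaps Gm45753. Cyp26b1, which degrades retinoic acid, had 24.6, 22.5, 16.3 and 23.3 in TNFKO LPS mice, 6.02, 9.78, 3.40 and 3.45 in LPS mice, and 3.54, 3.15, 5.13 and 1.01 in PBS mice. All 4 TNFKO LPS intestines were above the rest. The change was 1.85 ± 0.33 (SE; adjusted p = 0.00112) for TNFKO LPS against LPS, and LPS and PBS intestines overlapped (0.67 ± 0.33, SE; adjusted p = 0.153).

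**Figure D4:**
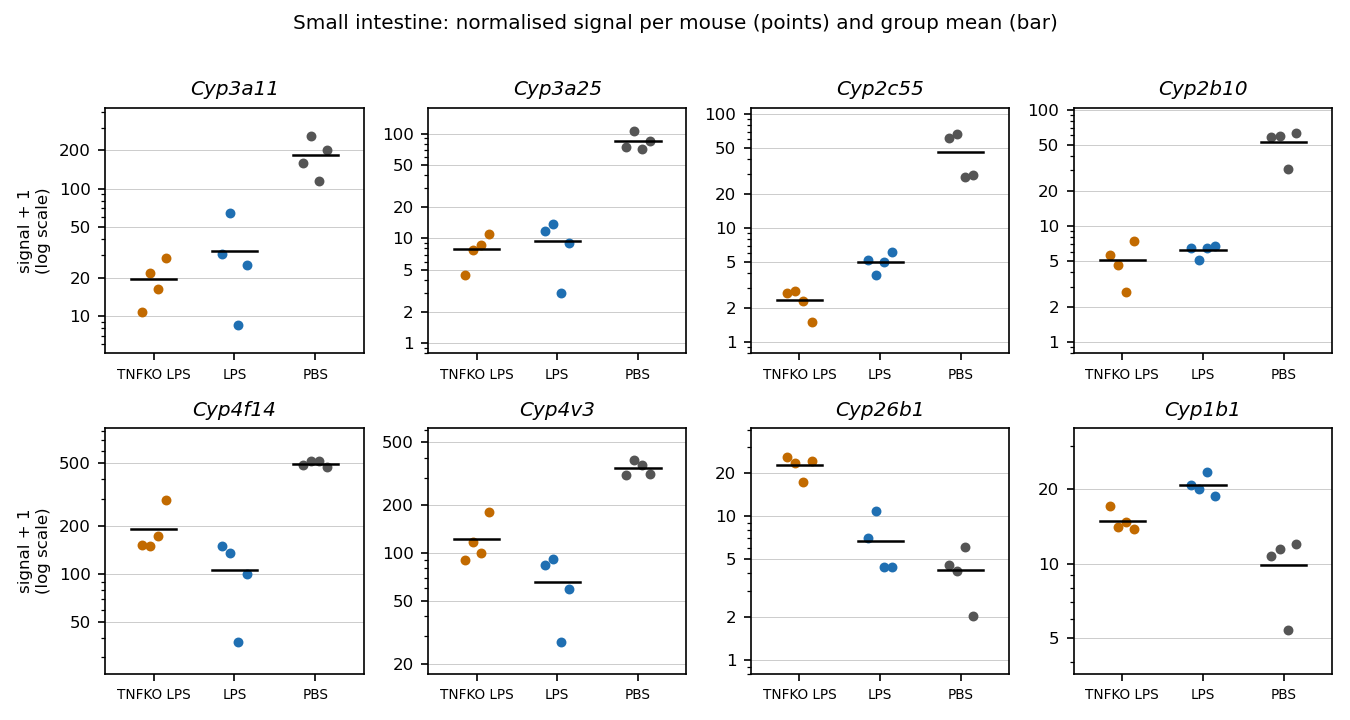
Small intestine signal + 1 of 8 members (y axis, log scale) in TNFKO LPS, LPS and PBS mice (x axis); each point is 1 mouse and each bar the mean of 4. Cyp3a11, Cyp3a25, Cyp2c55 and Cyp2b10 are highest in PBS mice without overlap, Cyp26b1 is highest in TNFKO LPS mice, and Cyp1b1 is highest in LPS mice.

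Of 19 electron and heme supply genes in small intestine, 1 rose and 6 fell with LPS, and 1 fell in TNFKO LPS against LPS. That gene was Por, which averaged 80.0 ± 9.88 in TNFKO LPS mice, 126 ± 16.5 in LPS mice and 89.8 ± 13.9 in PBS mice. The change was 0.49 ± 0.13 (SE; adjusted p = 0.00804) with LPS and -0.65 ± 0.13 (SE; adjusted p = 0.00324) for TNFKO LPS against LPS. Of 20 transcription factor and feedback genes, 2 rose and 6 fell with LPS, and 1 rose and 2 fell in TNFKO LPS against LPS. Of all genes tested in small intestine, 9.92% rose and 13.4% fell with LPS. In TNFKO LPS against LPS intestine, 4.47% of all genes rose and 2.65% fell. Fgf15, the ileal hormone that represses Cyp7a1 in liver, averaged 10.4 ± 4.47 in TNFKO LPS mice, 4.87 ± 0.955 in LPS mice and 25.1 ± 7.75 in PBS mice and fell with LPS (-2.12 ± 0.29, SE; adjusted p = 1.24e-05).

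A joint fit of the 45 groups of tissue and treatment tested the differences between tissues themselves, with tissues of the same mice taken as independent. The LPS change differed among the 15 tissues for 56 of 67 members (moderated F of limma), where 65.3% of all genes did. The TNFKO LPS against LPS change differed for 15 members, against 25.6% of all genes. The LPS change in liver differed from that in kidney for 30 members (18.1% of all genes, in either direction), and 29 of these were lower in liver. It differed from that in small intestine for 34 members (19.6%), of which 26 were lower in liver. Kidney differed from small intestine for 17 members (15%), of which 15 were higher in kidney. At a pseudocount of 0.25, the members that differed numbered 16, 18 and 7. The fit took in all 67 members, though 13 did not pass the filter in kidney and 16 did not in small intestine. A gene near 0 in a tissue can hardly fall there, so a difference from liver does not show that such a member was spared. For Cyp4a14 the change in liver minus that in kidney was -2.50 ± 0.41 (SE; adjusted p = 2.88e-07), and for Cyp4a10 it was -2.26 ± 0.45 (SE; adjusted p = 2.78e-05). Cyp2f2 differed likewise (-2.53 ± 0.29, SE; adjusted p = 6.04e-13). Cyp2b10 did not pass between liver and kidney (-0.33 ± 0.47, SE; adjusted p = 0.693), and its change in liver minus that in small intestine was 3.39 ± 0.47 (SE; adjusted p = 1.10e-09). Cyp2e1 gave -2.96 ± 0.42 (SE; adjusted p = 3.16e-09) for liver minus small intestine, and Cyp3a11 gave 1.05 ± 0.55 (SE; adjusted p = 0.184).

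Cyp1b1 (chr17:79701537-79715061, minus strand), an oxidase of estrogens and polycyclic hydrocarbons found in stromal and endothelial cells, was the member that rose with LPS in the most tissues, 11 of 15, and it fell in none. In heart it had 33.1, 37.1, 33.6 and 33.4 in TNFKO LPS mice, 72.9, 60.4, 61.0 and 81.1 in LPS mice, and 15.2, 13.8, 9.19 and 18.1 in PBS mice. The change was 2.24 ± 0.18 (SE; adjusted p = 1.51e-10) for LPS against PBS and -0.98 ± 0.18 (SE; adjusted p = 9.50e-04) for TNFKO LPS against LPS, and no 2 groups overlapped. Bone marrow gave 26.2, 37.9, 26.2 and 27.5 in TNFKO LPS mice, 55.1, 46.9, 55.3 and 61.4 in LPS mice, and 24.3, 16.4, 11.2 and 15.9 in PBS mice. The changes were 1.67 ± 0.18 (SE; adjusted p = 7.33e-08) for LPS against PBS and -0.88 ± 0.18 (SE; adjusted p = 0.00327) for TNFKO LPS against LPS. In the other 9 tissues the LPS change was 1.66 in lung, 1.31 in skin, 1.25 in brown fat, 1.19 in muscle, 1.13 in small intestine, 1.09 in white fat, 0.98 in brain, 0.69 in kidney and 0.69 in thymus. The call in brain was lost when any 1 of mice 2, 4, 5, 7 and 8 was left out, that in muscle when any 1 of mice 2 and 8 was left out, and that in thymus without mouse 5 (adjusted p up to 0.13, 0.103 and 0.0986). Between TNFKO LPS and LPS mice Cyp1b1 passed in heart and bone marrow alone. The 250 bases before its start (chr17:79715062-79715311, minus strand, RefSeq, GRCm38.p6) are shown because it rose with LPS in the most tissues. This window held the core of the aryl hydrocarbon receptor site, GCGTG, at 1 place, in capitals as CACGC, and none of the other 4 motifs.
Cyp1b1: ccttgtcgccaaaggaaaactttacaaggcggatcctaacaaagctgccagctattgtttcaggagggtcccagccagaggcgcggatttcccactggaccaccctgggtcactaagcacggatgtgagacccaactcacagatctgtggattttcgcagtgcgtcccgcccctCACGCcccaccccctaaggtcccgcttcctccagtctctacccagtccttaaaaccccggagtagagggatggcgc

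**Figure D5:**
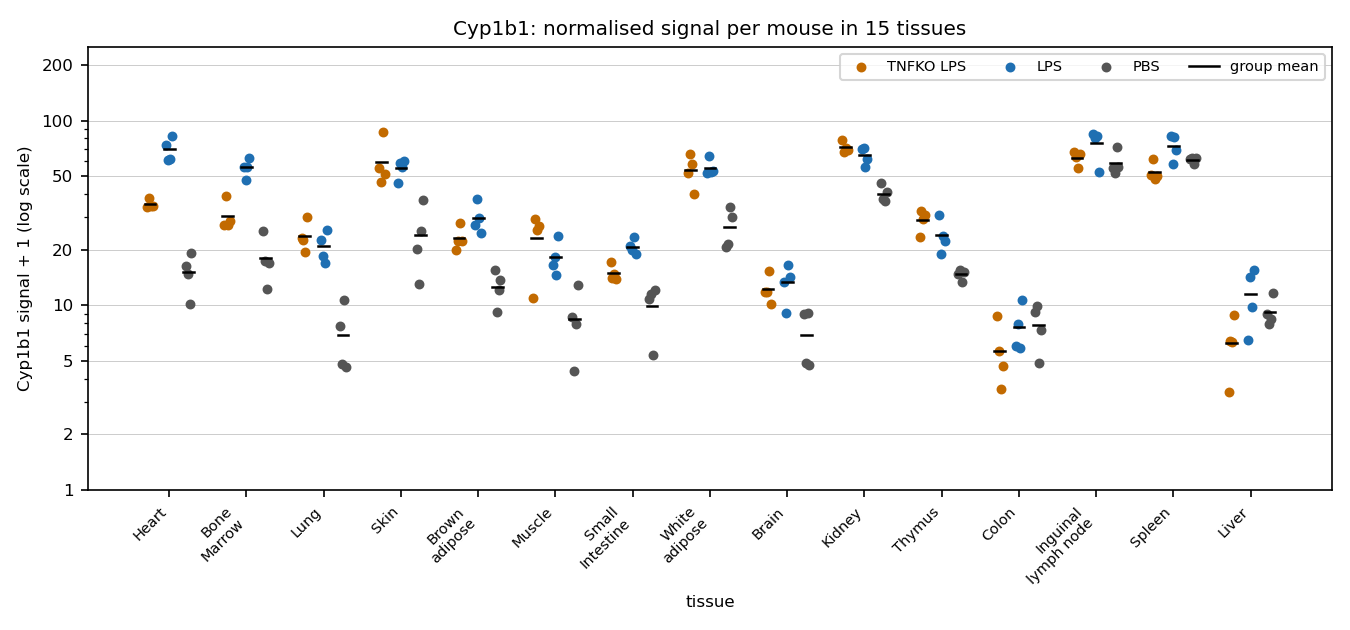
Cyp1b1 signal + 1 (y axis, log scale) in each of 15 tissues (x axis), with TNFKO LPS, LPS and PBS mice from left to right; each point is 1 mouse and each bar the mean of 4. LPS mice lie above PBS mice without overlap in heart and bone marrow, with TNFKO LPS mice between them.

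In lung, 5 of 49 members tested fell and 2 rose with LPS, against 13.9% and 11.7% of all genes, and 3 rose and none fell in TNFKO LPS against LPS, against 3.71% and 2.28%. Cyp2f2, a marker enzyme of club cells, had 833, 1040, 1134 and 977 in TNFKO LPS mice, 612, 684, 348 and 371 in LPS mice, and 2208, 2452, 2515 and 2303 in PBS mice in lung. The 3 groups did not overlap. The log2 change was -2.29 ± 0.15 (SE; adjusted p = 7.24e-12) with LPS and 1.04 ± 0.15 (SE; adjusted p = 1.12e-04) for TNFKO LPS against LPS. Cyp4b1 had 564, 822, 588 and 687 in TNFKO LPS mice, 392, 454, 281 and 357 in LPS mice, and 589, 582, 658 and 626 in PBS mice. The changes were -0.74 ± 0.13 (SE; adjusted p = 4.61e-05) for LPS against PBS and 0.85 ± 0.13 (SE; adjusted p = 1.20e-04) for TNFKO LPS against LPS, and TNFKO LPS and PBS lungs overlapped. Cyp2b10 had 140.1, 232, 179.8 and 197 in TNFKO LPS mice, 219, 155, 199.9 and 179 in LPS mice, and 96.9, 112, 94.5 and 93.2 in PBS mice. It was higher in LPS than in PBS lungs by 0.91 ± 0.14 (SE; adjusted p = 7.06e-06) with no overlap, and did not pass between the groups given LPS. The 4 club cell markers summed to 31648 to 43432 in TNFKO LPS mice, 38724 to 48937 in LPS mice and 48542 to 53647 in PBS mice.

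Cyp2b10 also rose with LPS in brown fat and skin. In brown fat it had 177, 310.0, 317 and 439 in TNFKO LPS mice, 168, 218, 97.5 and 72.4 in LPS mice, and 18.0, 24.6, 41.7 and 58.9 in PBS mice. The change was 1.94 ± 0.33 (SE; adjusted p = 1.88e-04) for LPS against PBS. Its rise in TNFKO LPS against LPS brown fat (1.21 ± 0.33, SE; adjusted p = 0.0496) was lost at a pseudocount of 0.25, with no filter or when any 1 of mice 5, 7, 8, 10, 11 and 12 was left out (adjusted p up to 0.205). In skin it had 63.0, 45.3, 45.7 and 51.5 in TNFKO LPS mice, 47.7, 51.7, 42.3 and 34.5 in LPS mice, and 19.1, 13.6, 17.3 and 9.53 in PBS mice. The change was 1.53 ± 0.20 (SE; adjusted p = 8.84e-06) with LPS. Among its 15 tissues Cyp2b10 thus rose in 3 and fell in small intestine. Cyp2g1, a steroid hydroxylase of olfactory mucosa and skin, had 104, 177, 142 and 255 in TNFKO LPS mice, 79.5, 43.8, 90.2 and 55.1 in LPS mice, and 126, 230.4, 216 and 106 in PBS mice in skin. The change was -1.30 ± 0.27 (SE; adjusted p = 0.00134) with LPS and 1.30 ± 0.27 (SE; adjusted p = 0.0091) for TNFKO LPS against LPS, and LPS skin was below both other groups without overlap.

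Cyp4b1 was the member that rose in TNFKO LPS against LPS mice in the most tissues, 6 of 15, and it fell in none. In brown fat it had 192, 241, 284 and 262 in TNFKO LPS mice, 131, 190.3, 74.9 and 119.5 in LPS mice, and 68.5, 57.5, 113 and 111 in PBS mice (0.98 ± 0.23, SE; adjusted p = 0.0229), and in muscle 45.4, 37.4, 35.1 and 49.3 in TNFKO LPS mice, 22.4, 23.0, 14.8 and 17.5 in LPS mice, and 20.5, 13.5, 27.8 and 23.7 in PBS mice (1.08 ± 0.24, SE; adjusted p = 0.00584). The brown fat call was lost when any 1 of mice 7, 8, 10, 11 and 12 was left out (adjusted p up to 0.1). Inguinal lymph node gave 30.5, 45.1, 32.7 and 43.2 in TNFKO LPS mice, 15.2, 29.1, 12.6 and 14.9 in LPS mice, and 34.0, 36.2, 57.5 and 55.9 in PBS mice. The change was 1.09 ± 0.22 (SE; adjusted p = 0.0116) for TNFKO LPS against LPS. In heart, Cyp2u1, a fatty acid hydroxylase, had 37.4, 29.5, 40.0 and 32.7 in TNFKO LPS mice, 11.7, 22.8, 18.1 and 19.2 in LPS mice, and 44.8, 49.6, 44.4 and 29.1 in PBS mice. The change was -1.19 ± 0.20 (SE; adjusted p = 4.34e-05) with LPS and 0.95 ± 0.20 (SE; adjusted p = 0.00339) for TNFKO LPS against LPS, so that LPS hearts were below both other groups.

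Cyp27a1 fell with LPS in 7 tissues and rose in 1. In spleen it had 14.2, 8.23, 5.90 and 9.32 in TNFKO LPS mice, 9.77, 19.6, 7.85 and 5.41 in LPS mice, and 34.0, 43.5, 29.0 and 43.1 in PBS mice (-1.84 ± 0.33, SE; adjusted p = 9.04e-05 for LPS against PBS). In muscle it had 105, 144, 91.5 and 152 in TNFKO LPS mice, 102, 124, 97.7 and 84.6 in LPS mice, and 47.3, 62.0, 41.7 and 79.9 in PBS mice, and each LPS muscle was above each PBS muscle (0.84 ± 0.18, SE; adjusted p = 0.00122). Cyp2c55 in colon had 155, 54.5, 28.8 and 110.5 in TNFKO LPS mice, 203, 124, 122 and 215 in LPS mice, and 739.8, 735, 379 and 693 in PBS mice. The change was -1.93 ± 0.30 (SE; adjusted p = 1.64e-05) with LPS and -1.14 ± 0.30 (SE; adjusted p = 0.0244) for TNFKO LPS against LPS. The second was lost in a fit of those 2 groups alone or when any 1 of mice 5, 8, 10 and 11 was left out (adjusted p up to 0.123). Cyp4f14 in colon had 83.8, 70.2, 64.4 and 70.4 in TNFKO LPS mice, 29.9, 49.9, 20.4 and 30.0 in LPS mice, and 64.4, 64.6, 63.0 and 49.1 in PBS mice. The change was 1.19 ± 0.19 (SE; adjusted p = 2.09e-04) for TNFKO LPS against LPS. Cyp2d9, which fell in liver, averaged 56.0 ± 1.33 in TNFKO LPS mice, 36.5 ± 20.6 in LPS mice and 11.6 ± 5.04 in PBS mice in colon and rose with LPS there by 1.54 ± 0.27 (SE; adjusted p = 1.27e-04). In white fat Cyp2e1 averaged 652 ± 187 in TNFKO LPS mice, 439.7 ± 144 in LPS mice and 860.5 ± 336 in PBS mice. The change was -0.94 ± 0.24 (SE; adjusted p = 0.00806) for LPS against PBS, the groups overlapped, and the call was lost without PBS mouse 3 (adjusted p = 0.0512). Among all genes called between TNFKO LPS and LPS mice, rescaling moved the share of rises to 53.7%, 48.2% and 50.8% in colon, heart and spleen, against 65.8%, 58.6% and 61.7% in the deposited scaling.

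In bone marrow and inguinal lymph node several calls moved with kidney markers. Cyp2j5 in lymph node had 3.05, 4.36, 4.22 and 3.65 in TNFKO LPS mice, 3.29, 5.29, 2.61 and 2.99 in LPS mice, and 25.3, 23.2, 49.7 and 60.2 in PBS mice (-3.08 ± 0.28, SE; adjusted p = 7.18e-08 for LPS against PBS), and the kidney proximal tubule markers there summed to 93.3 to 105 in TNFKO LPS mice, 80.4 to 109 in LPS mice and 353 to 1110 in PBS mice. All 4 PBS nodes were high in both. There, 10 of 49 members tested fell with LPS and none rose, against 12.6% and 9.97% of all genes. In bone marrow Cyp2j5 had 9.58, 33.4, 30.4 and 5.41 in TNFKO LPS mice, 6.43, 14.9, 15.6 and 8.57 in LPS mice, and 2.63, 4.38, 4.27 and 3.27 in PBS mice and Cyp4a10 14.7, 28.9, 60.3 and 10.8 in TNFKO LPS mice, 22.1, 25.6, 46.8 and 16.7 in LPS mice, and 10.5, 6.02, 9.61 and 5.14 in PBS mice. For LPS against PBS, Cyp2j5 changed by 1.35 ± 0.39 (SE; adjusted p = 0.0116) and Cyp4a10 by 1.66 ± 0.36 (SE; adjusted p = 0.00108). The same markers summed there to 157 to 674 in TNFKO LPS mice, 156 to 349.5 in LPS mice and 88.1 to 109.9 in PBS mice, highest in TNFKO LPS mice 10 and 11 and LPS mouse 7, which were also the highest for Cyp2j5 within their groups. Hepatocyte markers summed to 575 to 637 in TNFKO LPS mice, 549 to 589 in LPS mice and 567 to 662 in PBS mice in bone marrow. In lymph node they summed to 503 to 623 in TNFKO LPS mice and 519 to 568 in LPS mice, and to 4601 in PBS mouse 1 against 493 to 540.2 in the other PBS nodes. The part of kidney or liver RNA in these calls was not tested. Without bone marrow and lymph node, the members lower in TNFKO LPS against PBS mice over the other tissues numbered 11 in place of 21.

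Neighbouring members were also read together by position (GRCm38, GENCODE M21). With LPS, 13.5%, 13.4% and 21.9% of all genes tested fell in liver, small intestine and kidney, and 11.6% rose in liver. In TNFKO LPS against LPS mice, 13.2% of all genes rose in kidney and 5.96% in liver. The 13 Cyp2c genes at chr19:39007019-40187333 gave 10 falls of 13 in liver with LPS, 6 of 10 tested in small intestine and 0 of 9 tested in kidney. Most of these genes had a mean signal below 10 in PBS kidneys, where a fall could hardly be seen. The 5 Cyp3a genes at chr5:145694049-146113287 fell in liver in 5 of 5 and in small intestine in 2 of 3. The 4 genes Cyp4a10, Cyp4a14, Cyp4a31 and Cyp4b1 at chr4:115486200-115647723 gave 3 falls and no rise in liver with LPS, and 4 rises of 4 in TNFKO LPS against LPS kidneys, where liver gave none. The 11 members at chr7:25802475-27133660, which hold the 2A, 2B, 2F, 2G and 2S genes, gave 6 falls in liver with LPS, and the 8 Cyp2d genes, with the pseudogene Cyp2d37-ps among them, at chr15:82370527-82794294 gave 6. Genes in such clusters share sequence, and a read of 1 can be counted for another.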

How the data were processed

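Tag counts from 180 libraries were normalised by the authors and deposited as a table of signal values per gene, which sum to 703690 to 1603067 per library. Per the submitters' processing notes, reads were handled with mm10, FastQC, MultiQC and edgeR; the aligner and the use of molecular identifiers are not given in the sources used here. Each deposited signal was a whole multiple of the value of 1 count in its library (100% within 0.1 count), so counts were recovered for edgeR and for floors of 3 counts, which cover counting error only. In each tissue, a gene was kept where 4 or more of its 12 libraries reached a signal of 1. The test was limma's trend method (limma 3.58.1, R 4.3.3) on log2(signal + 1), with the 3 groups in 1 fit and Benjamini-Hochberg adjustment over all genes of that tissue. A joint limma fit over 45 groups tested differences between tissues. Scripts were tested on simulated data.

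The members and lists were chosen with earlier results of these data known. Members named were up to 12 per comparison and direction with the largest changes in liver, kidney and small intestine (mean signal at least 10), up to 3 per direction elsewhere (at least 5), and a list of well-known ones. A few others, among them Cyp2c23, Cyp21a1, Cyp2d26 and Cyp4f14, were named after their values were seen. Pathway and marker genes were given as counts with examples. Mice within a group are separate animals, and the same 12 mice gave all tissues, so mouse was also tried as a replicate block. Other alternatives were a pseudocount of 0.25, no filter, median-of-ratios scaling, edgeR 4.0.16 on counts, fits of 2 groups and leaving out each mouse. In liver, kidney and small intestine edgeR called 3363, 5028 and 2942 of all genes for LPS against PBS and 1560, 2670 and 1078 for TNFKO LPS against LPS. Leaving out kidney libraries of mice 5, 6 and 9, or bone marrow and lymph node, was chosen after seeing the data.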

Additional observations from a re-analysis of the deposited data

Results flagged for a closer look

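Among 272 groups of 4 mice examined for the genes described, 15 held a single mouse far from the other 3 by Dixon's test, and chance flags about 1 in 20 groups. In liver these were the Cyp17a1 signal of 79.98 in PBS mouse 1 (lowest), Cyp4f14 at 348.5 in PBS mouse 2 (highest) and Cyb5a at 633.6 in TNFKO LPS mouse 9 (highest). In kidney, LPS mouse 6 was highest for Cyp4a10 at 673.9 and for Hnf4a at 162.1, TNFKO LPS mouse 12 was highest for Cyp2d12 at 19.42, TNFKO LPS mouse 9 was highest for Cyp21a1 at 12.65, and PBS mouse 2 was lowest for Cyp24a1 at 49.88. Kidney mice 6 and 9 are among those with high adrenal markers. In small intestine TNFKO LPS mouse 12 was highest for Cyp4f14 at 294.6. In colon PBS mouse 3 was lowest for Cyp2c55 at 379.2 and PBS mouse 4 lowest for Cyp4f14 at 49.11. Cyp1b1 was highest in TNFKO LPS mouse 10 in heart at 37.15 and in bone marrow at 37.85, and in LPS mouse 6 in white fat at 63.62. Cyp4b1 in inguinal lymph node was highest in LPS mouse 6 at 29.11.

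The LPS against PBS change differed among the 15 tissues for 56 of 67 members, against 65.3% of all genes, and the TNFKO LPS against LPS change for 15, against 25.6% of all genes. Between pairs of tissues the LPS change differed for 30 members (liver minus kidney, 18.1% of all genes), 34 (liver minus small intestine, 19.6%) and 17 (kidney minus small intestine, 15%).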

How the results depend on the processing

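No result reversed its direction under the alternatives run. With 1 mouse left out, counts for LPS against PBS ran from 1 to 2 (liver rises, 2 with all mice), 9 to 14 (kidney falls, 14) and 1 to 2 (small intestine rises, 2). For TNFKO LPS against LPS they ran from 5 to 12 (liver falls, 10), 6 to 12 (liver rises, 11), 2 to 4 (kidney falls, 2), 0 to 2 (small intestine falls, 1), 1 to 4 (small intestine rises, 3) and 10 to 21 (rises in the other 12 tissues, 18), and for TNFKO LPS against PBS from 1 to 2 (small intestine rises, 1). Liver rises with LPS numbered 1 at a pseudocount of 0.25, with edgeR and in a fit of 2 groups. With edgeR, kidney falls in TNFKO LPS against LPS numbered 4 and those in small intestine 0, and in a fit of 2 groups small intestine rises numbered 1. Kidney rises with LPS numbered 3 without the kidney libraries of mice 5, 6 and 9, and falls in TNFKO LPS against PBS over the other tissues numbered 11 without bone marrow and lymph node. At a pseudocount of 0.25 the tissue differences numbered 16 (liver minus kidney), 18 (liver minus small intestine) and 7 (kidney minus small intestine). The cause of these shifts was not tested. With mouse as a replicate block in the joint fit (correlation within a mouse 0.0159), the tissue counts were 56, 16, 30, 34 and 18, where the fit without the block gave 56, 15, 30, 34 and 17. Among single genes named, 224 of the values with 1 mouse left out no longer passed and 2583 kept their result. The same 2 numbers were 9 and 345 at a pseudocount of 0.25 and 9 and 341 in fits of 2 groups. They were 7 and 344 with edgeR, 6 and 348 after rescaling and 4 and 350 with no filter. A further 17 values with 1 mouse left out and 3 with edgeR newly passed. Libraries hold few counts, so members under about 3 counts per library cannot be ranked.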
